A study of Mus musculus with 10 samples.

Results

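GFAP-Cre hybrids are graft-derived cells that carried both a red and a yellow fluorescent protein when they were sorted from the midbrain of GFAP-Cre mice. They were compared with unfused graft cells, which carried the red protein only. The comparison uses 4 of the 10 arrays of the series, 2 of hybrids and 2 of unfused cells, chosen by their sample labels and described over all 32212 genes or unnamed transcripts tested. All 4 lie on 1 slide.

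Every recipient in the study had been injected with MPTP, a toxin that kills dopaminergic neurons of the substantia nigra. Haematopoietic stem and progenitor cells (HSPCs), taken as the lineage-negative fraction of donor bone marrow, were placed on 1 side of the midbrain 3 days after the last injection, and cells were sorted 1 week later. For the hybrids, HSPCs with the R26Y reporter, which Cre recombinase switches to yellow, were grafted into MPTP-treated GFAP-Cre mice. The unfused cells were pooled from 2 models: MPTP-treated R26Y mice that received HSPCs with Cre and RFP, and MPTP-treated GFAP-Cre mice grafted as above. The 2 groups therefore differ in recipient mix and in the genotype mix of the grafted HSPCs as well as in fusion. Each replicate pooled samples of 2 mice, and the age, sex and strain background are not given in the sources used here. Nothing in the labels says that the replicates came from separate grafting sessions, so p-values measure only the spread between the samples of this series. The Gfap promoter drives Cre in astrocytes and also in neural progenitors. In this recipient YFP marks a grafted cell whose reporter met Cre at or after fusion. Red-only cells can include grafted cells fused with other cell types.

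Fusion of a blood-derived cell with a brain cell brings both genomes and their transcriptional programmes into a shared cytoplasm. Gfap encodes the main intermediate filament of astrocytes. Brain phagocytes, microglia among them, digest cell debris in lysosomes with cathepsins and other acid hydrolases. The transcription factor TFEB activates many lysosomal genes through an E-box with the core CACGTG near their start sites. In bulk samples like these, fewer cells of a type and less RNA per cell cannot be told apart.

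The hybrid arrays had 81.4% and 82.4% of spots well above background (brighter than the local background by the scanner software's own test), and the unfused arrays 82.8% and 86.7%. Levels below are log2 of the processed signal minus the array's 75th percentile, so a difference of 1 is a 2-fold difference. Of the 32212 genes, 27515 (85.4%) were well above background on all 4 arrays. Across genes, which are not independent replicates, Spearman's rho was 0.904 between the hybrid replicates, 0.951 between the unfused replicates and 0.956 between the means of the groups. The median SD between replicates was 0.37 for hybrids and 0.24 for unfused cells, and the median absolute difference between the groups was 0.31. In the remaining groups of the series, which enter the spread of the test below, the median SD was larger, 0.63 to 0.76.

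No gene passed in limma. The moderated test with a shared spread over all 10 arrays called 0 of 32212 genes (0%) after Benjamini-Hochberg adjustment, with 520 (1.61%) at an unadjusted p under 0.05 and a smallest adjusted p of 1.00. An exact permutation test of 2 arrays against 2 cannot give a two-sided p below 0.333. Genes are therefore described by whether the groups lay apart: both arrays of 1 group above both of the other, means at least 2-fold different, and signal well above background on both arrays of the higher group. This is a description without a test. By it 1288 genes (4.0%) were higher in hybrids and 1338 (4.15%) were lower. Every member count below that comes from this main setting is to be read against these shares.

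**Figure D1:**
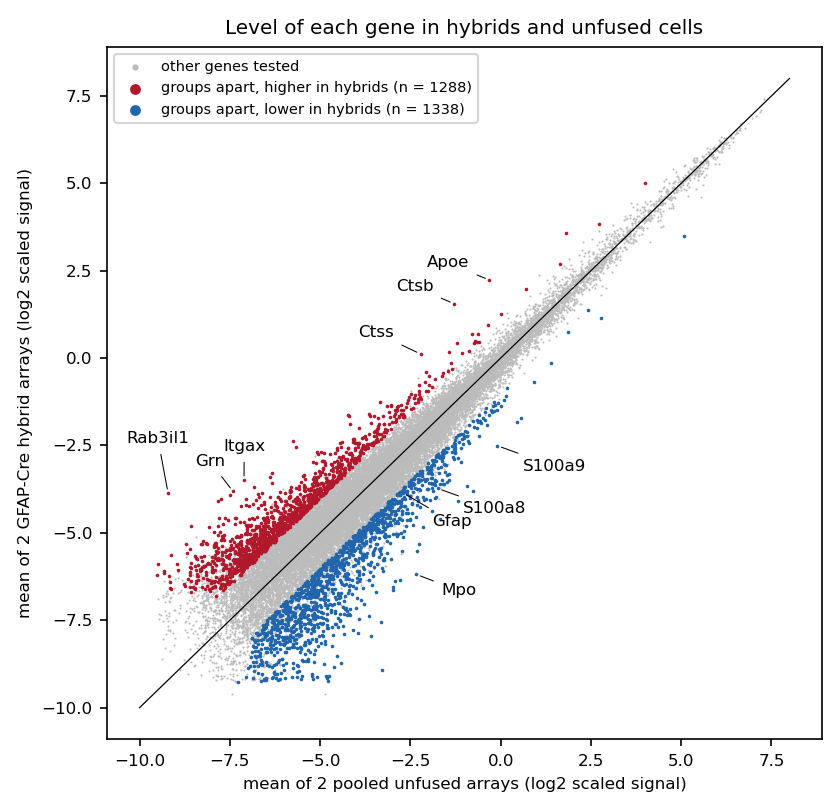
Mean level of each of 32212 genes in the 2 pooled unfused arrays (x axis) and the 2 GFAP-Cre hybrid arrays (y axis), both as log2 scaled signal. Red and blue points are the 1288 genes higher and 1338 genes lower with groups apart, most of them at low signal, and named genes are those described in the text; the line marks equal levels.

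Dim genes made up most of both sets. With genes split into 5 equal classes by mean level, 9.78% of the dimmest class were higher and 9.76% lower, against 0.54% and 0.68% of the brightest. In the upper 3 classes together the shares were 1.64% and 2.14%. Of the genes higher in hybrids, 180 were well above background on neither unfused array, and of the genes lower, 378 were above it on neither hybrid array. The 5th and 95th percentiles of the log2 difference were -1.14 and 1.07, and 103 genes differed by 3 or more.

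**Figure D2:**
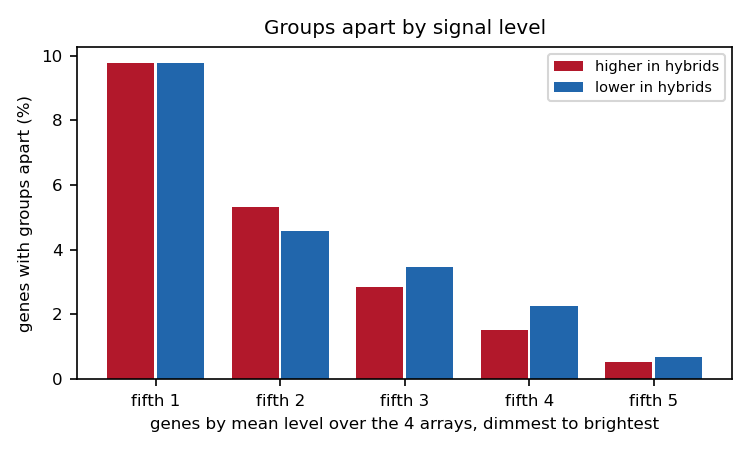
Percent of genes (y axis) whose groups lay apart, in 5 equal classes of genes by mean level over the 4 arrays (x axis, dimmest to brightest). Red bars are genes higher and blue bars genes lower in GFAP-Cre hybrids; the share falls from 9.78% to 0.54% (higher) and from 9.76% to 0.68% (lower).

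Lysosomal genes lay apart on the higher side more often than genes in general. Of 30 lysosomal genes tested, 10 were higher in hybrids and 1 was lower (background 4.0% and 4.15%), and 25 had a difference above 0. Their median log2 difference was 0.60, against 0.04 over all genes. Among the 10 were Grn, Ctsl, Ctsb, Ctss, Lgmn, Ctsa, Ctsd, Lamp1 and Psap. In the upper 3 classes of level, 6 of 18 members were higher, against 1.64% of all genes there. The lysosome and microglia lists were drawn up with an earlier result for Grn in these arrays known, so their direction is not independent evidence.

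Grn encodes progranulin, a secreted and lysosomal growth factor precursor whose loss causes lysosomal storage disease. Its level was -3.51 and -4.11 on the hybrid arrays and -7.18 and -7.66 on the unfused arrays. Both hybrid arrays were well above background and neither unfused array was, so hybrids were at least 12.04-fold higher. This lower bound compares the mean of the hybrids with the lowest signal above background on each unfused array, or the probe's own where that was higher, as do all folds written "at least". The log2 difference of 3.61 ± 0.53 (SE) had the smallest p of all genes in limma (p 0.000159, adjusted p 1.00). The single probe lies on chromosome 11 at 102297692 to 102297751 on build mm9; the array files give no exon or UTR for a probe.

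The cathepsins, the proteases of the lysosome, were the largest group among these genes. Ctsb (cathepsin B) was bright, at 1.77 and 1.34 in hybrids against 0.48 and -3.07 in unfused cells. The hybrid arrays agree closely and unfused replicate 2 was far below the others. Its log2 difference was 2.85 ± 2.97 (SE, limma p 0.367). Ctss (cathepsin S, a protease of antigen-presenting cells) measured 0.92 and -0.68 against -1.22 and -3.21. Ctsd (cathepsin D, the main aspartic protease) measured -0.38 and -1.01 against -1.94 and -2.25, with the replicates of each group within 1 log2 unit. Ctsa, which also protects other hydrolases, measured -1.08 and -1.66 against -2.64 and -3.63. Ctsl (cathepsin L) measured -3.72 and -7.19 in hybrids and was not well above background in unfused cells, at least 4.15-fold higher, with hybrid replicate 1 far above replicate 2. The SE of each gene takes in the spread of all 5 groups, and the FoxA2-Cre unfused replicates of Ctsb measured -5.77 and 4.28.

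Other members of the list have different tasks. Lgmn encodes legumain, an endopeptidase that matures cathepsins, and measured -1.85 and -3.27 in hybrids against -4.21 and -4.88 in unfused cells. Psap encodes the precursor of the saposins and binds progranulin, and measured -5.04 and -5.61 against -6.17 and -6.59. Lamp1, a membrane glycoprotein of the lysosome, measured -1.69 and -1.97 against -2.09 and -3.75, so that the nearest arrays of the groups were close. Mcoln1, a calcium channel of the lysosome membrane, was the lower member, at -4.23 and -3.83 against -2.92 and -3.11. Hydrolases such as Gaa, Gusb and Lipa had differences of 0.02, 0.04 and 0.14, and Tfeb itself measured -3.73 and -4.58 against -5.08 and -4.16. Hgsnat, a lysosomal acetyltransferase outside the list, measured -4.10 and -3.89 in unfused cells and was not well above background in hybrids, at least 8.20-fold lower.

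The promoters of these genes are shown because several carry the TFEB core. RefSeq (GRCm38.p6) promoters were at hand for 8 of the 10 genes, and the 250 bases before the start were searched on both strands. CACGTG was found in 5 of 8, in 5 of 16 other lysosomal members tested and in 6.86% of 27025 genes with a promoter. The longer palindrome TCACGTGA, which contains CACGTG, was found in 2 of 8, 2 of 16 and 0.91%. GAGGAAGT, a binding sequence of the myeloid factor PU.1, was found in 0 of 8, 2 of 16 and 2.79%. The matches occur in lysosomal genes whether or not they differed here. The stretches with CACGTG in capitals, 5′ to 3′ on the gene's strand and within the 250 bases before its start, are:
Lamp1 (chr8:13159065-13159160, plus strand): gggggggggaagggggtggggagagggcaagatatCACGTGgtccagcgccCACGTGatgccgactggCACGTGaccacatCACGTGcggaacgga
Ctsd (chr7:142387885-142388077, minus strand): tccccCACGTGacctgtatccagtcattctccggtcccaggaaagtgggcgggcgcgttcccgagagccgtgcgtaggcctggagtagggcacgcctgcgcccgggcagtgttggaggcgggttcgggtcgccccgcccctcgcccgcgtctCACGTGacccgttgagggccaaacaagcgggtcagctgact
Lgmn (chr12:102439101-102439176, minus strand): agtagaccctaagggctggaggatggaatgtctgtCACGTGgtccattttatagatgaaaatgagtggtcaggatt
Ctsl (chr13:64370716-64370770, minus strand): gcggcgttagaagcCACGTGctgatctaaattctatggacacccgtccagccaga
Ctsa (chr2:164833726-164833772, plus strand): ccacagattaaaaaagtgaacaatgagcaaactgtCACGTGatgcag
Lamp1 holds 4 matches, Ctsd 2 and the others 1 each. A match describes these letters and was not tested as a binding site.

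Genes of phagocytic microglia gave the highest share of any list. Of 18 genes tested, 9 were higher in hybrids and 0 lower (background 4.0% and 4.15%), 17 had a difference above 0, and the median log2 difference was 1.04. In the upper 3 classes of level 6 of 12 were higher. This list shares 5 genes with the lysosome list, 3 of them among the higher genes (Grn, Ctsb and Ctsd), and Trem2 and Tyrobp with the list of homeostatic microglia. Of 17 homeostatic microglia genes 5 were higher and 0 lower, with a median of 0.58. Over the 3 lists together, 18 of 57 distinct genes were higher and 1 was lower.

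Itgax, which encodes the integrin CD11c of dendritic cells and activated microglia, measured -3.89 and -3.09 in hybrids and -5.78 and -8.43 in unfused cells. It was well above background on both hybrid arrays and 1 unfused array, with a log2 difference of 3.62 ± 0.93 (SE, limma p 0.00500). Apoe, the lipid carrier of glia and macrophages, measured 2.59 and 1.88 against 0.54 and -1.17. Trem2, the lipid-sensing receptor of phagocytes, measured -0.92 and -2.37 against -2.83 and -3.70, and Tyrobp, its signalling adaptor, measured -1.67 and -1.21 against -2.60 and -2.35. C1qc, a chain of complement C1q, measured -2.39 and -2.98 against -3.81 and -6.36, while the chains C1qa and C1qb differed by 0.05 and 0.08. P2ry12, the purinergic receptor of resting microglia, measured -4.19 and -3.85 against -5.54 and -5.84, with closely matched replicates in both groups. In each of these genes the hybrid arrays lay above the unfused arrays, and unfused replicate 2 was the lowest array for Itgax, Apoe, Trem2, C1qc and P2ry12.

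The remaining microglial genes did not lie apart. Cx3cr1, the fractalkine receptor, measured -0.90 and -2.04 in hybrids against -1.90 and -2.35 in unfused cells. Csf1r, Itgam and Siglech were among the bright genes of the list and differed by -0.03, 0.02 and -0.05. Tmem119, a microglial membrane protein gene, differed by 0.16. Gpnmb was far higher on hybrid replicate 1 (-5.28) than on replicate 2 (-8.51), and lay at -9.31 and -9.68 in unfused cells.

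**Figure D3:**
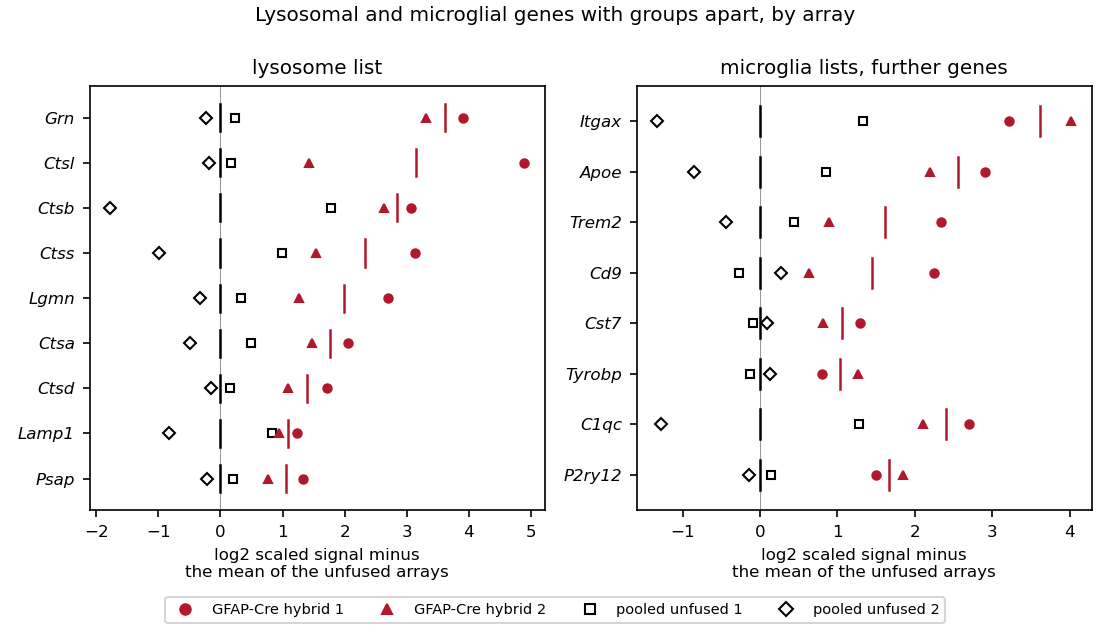
Level on each of the 4 arrays, as log2 scaled signal minus the mean of the unfused arrays (x axis), for 9 of the 10 lysosomal genes (left) and 8 further microglial genes (right) whose groups lay apart. Red symbols are hybrids, open black symbols unfused cells and vertical bars group means; the hybrid arrays lie to the right because the genes were drawn for it, and the gap between groups is wide for Grn and narrow for Lamp1.

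The counts depended on background correction and on single arrays. With normexp background correction and quantile normalization, 4 lysosomal, 5 phagocytic and 2 homeostatic microglia genes were higher by the same definition, when 132 of all genes were. Leaving out 1 array gave 8 to 15 lysosomal genes and 6 to 11 phagocytic microglia genes. The lowest counts were without hybrid replicate 1 and the highest without hybrid replicate 2 (15 and 11), with 11 phagocytic genes also without unfused replicate 1. With 1 array left out the definition was easier to meet for every gene. Of all 32212 genes, 1731 to 3288 were then higher, the most without hybrid replicate 2. Hybrid replicate 1 shares its slide row with both unfused arrays, and replicate 2 lies in the other row. Within that row 26 of 30 lysosomal genes were above 0 with a median of 1.04, and 18 of 18 phagocytic genes with a median of 1.41. The share over all genes is not at hand for this row. Other lists varied there, with 22 of 28 actin genes and 3 of 12 astrocyte genes above 0. The mean level over all genes was -3.30 on hybrid replicate 1, against -3.46 and -3.45 on the unfused arrays. Tyrobp lay at -0.18 with slide row as a block, against 1.03 without it. A code in the deposited files, whose meaning is not given, is shared by both hybrids and differs from that of both unfused samples, so it cannot be told apart from the groups.

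Neutrophil genes ran the other way. Of 15 genes for neutrophil surface, cytosolic and signalling proteins, 6 were lower in hybrids and 0 higher (background 4.15% and 4.0%), 11 had a difference below 0, and the median was -0.55. Among the 6 were S100a8, S100a9, Ly6g, Stfa1 and Stfa2. Of 14 granule genes 1 was lower, Mpo, and 11 had a difference below 0, with a median of -0.63. The mean level of the first list was -2.77 and -2.97 on the hybrid arrays and -2.13 and -2.24 on the unfused arrays, and that of the granule list -3.43 and -3.98 against -2.62 and -3.33. These mean levels moved opposite to those of the lysosome list (-2.84 and -3.67 against -4.0 and -4.21) and of the phagocytic microglia list (-2.16 and -3.0 against -3.55 and -4.42). The part that a different share of neutrophils or phagocytes in the sorted cells has in any of these results was not tested.

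S100a9 and S100a8 encode the 2 subunits of calprotectin. S100a9 measured -0.97 and -4.04 in hybrids against 0.15 and -0.32 in unfused cells, so hybrid replicate 2 made most of the difference. S100a8 measured -3.43 and -4.03 against -1.34 and -2.14. Mpo, the myeloperoxidase of primary granules, measured -6.06 and -6.31 against -0.73 and -3.93 (log2 difference -3.86 ± 1.05, SE, limma p 0.00660). A second Mpo probe, on chromosome 11 at 87615121 to 87615180 (mm9), was well above background on all 4 arrays and higher in hybrids by 0.63, so the probes disagree. Ly6g, the surface marker of mature neutrophils, measured -6.97 and -7.96 against -6.07 and -5.10, while Csf3r, the granulocyte growth factor receptor, was among the brightest genes and differed by -0.05. With normexp or with the authors' matrix 2 of the 15 genes were lower by the same definition, when 166 and 432 of all genes were. The granule count was 7 without hybrid replicate 1, 6 without unfused replicate 2 and 2 without unfused replicate 1. With 1 array left out the definition was easier to meet for every gene. In the same order, 3418, 2311 and 2153 of all 32212 genes were lower.

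Astrocyte genes as a list were not higher in the hybrids, although the recipient's Cre is driven by an astrocyte promoter. Of 12 tested, 1 was higher (Gjb6) and 2 were lower (Gfap and Slc1a2), 11 had a difference below 0, and the median was -0.27. Gfap, the gene whose promoter drives Cre in these recipients, measured -3.46 and -4.24 in hybrids against -2.59 and -2.83 in unfused cells, a log2 difference of -1.14 ± 0.71 (SE, limma p 0.146). Its probe with the highest signal lies on chromosome 11 at 102752726 to 102752785 (mm9). A second probe, at 102748864 to 102748923, was well above background on all 4 arrays and higher in hybrids by 0.73, and the other was above background on none, so no direction holds for Gfap over its probes. Slc1a2, the astrocytic glutamate transporter, measured -0.97 and -1.44 against 0.25 and -0.07, and all 3 of its probes were lower (-1.30, -0.91 and -0.14). Gjb6, a gap junction gene of astrocytes, measured -4.68 and -3.46 against -6.56 and -4.70, with 1 array of each group close to the other. Slc1a3 was well above background on none of the 10 arrays. The hybrids are therefore called by their sort here, since no astrocyte marker other than Gjb6 lay apart on the higher side.

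**Figure D4:**
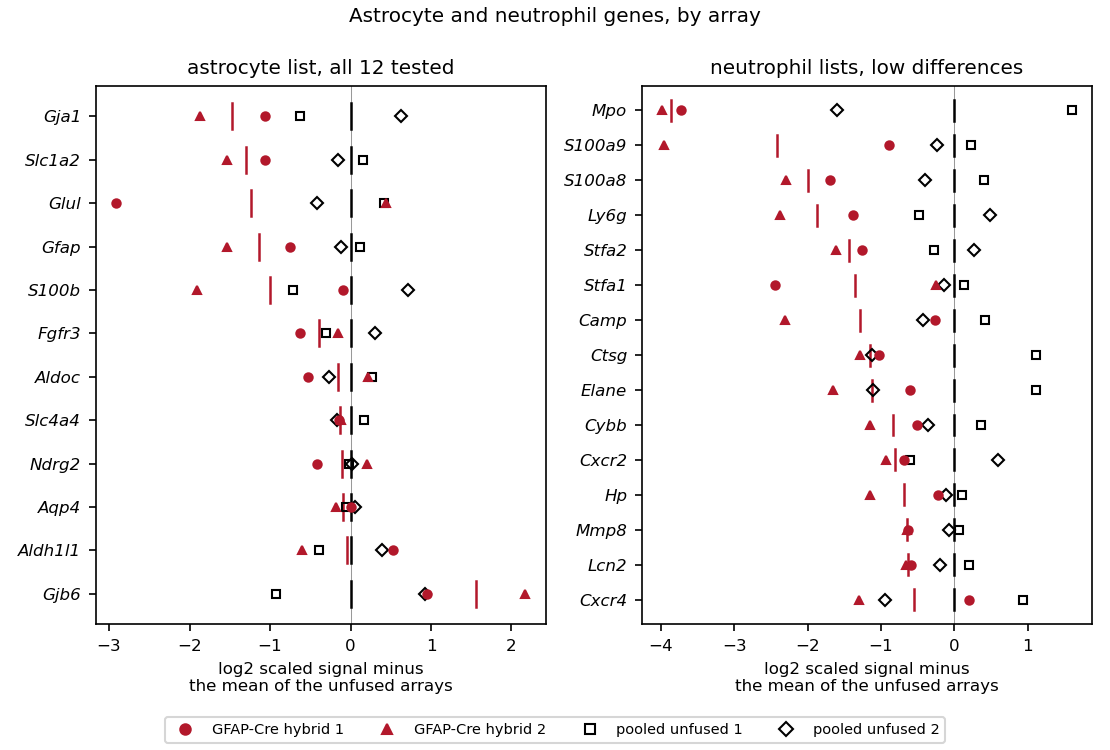
Level on each array, as log2 scaled signal minus the mean of the unfused arrays (x axis), for the 12 astrocyte genes tested (left) and 15 of the 29 neutrophil genes, among those with the lowest differences (right). Red symbols are hybrids, open black symbols unfused cells and vertical bars group means; most astrocyte genes overlap between groups, and Mpo, S100a9 and S100a8 lie furthest to the left.

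Other neural genes gave little on the higher side. Of 11 dopaminergic neuron genes 0 lay apart in either direction, and Th, the enzyme that limits dopamine synthesis, measured -0.22 and -0.57 against -0.17 and -0.31. Of 14 neuronal genes 3 were lower (Nefl, Slc17a6 and Map2). Of 13 oligodendrocyte genes 0 were higher and 1 was lower. Of 11 neural progenitor genes, Fabp7, a radial glia gene, was higher (-4.94 and -3.17 against -5.75 and -5.42) and Pax6 lower.

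Genes of the graft's own lineages lay on both sides, with counts that differed between lists. Ptprc, which encodes the pan-leukocyte marker CD45, measured -2.71 and -3.39 in hybrids against -2.82 and -3.10 in unfused cells. Kit, the stem cell factor receptor, measured -4.47 and -4.13 against -4.13 and -4.37. Both differed by less than the spread between replicates. Of 17 HSPC genes 1 lay apart, Myb, a factor of immature progenitors, at -6.03 and -5.92 against -3.31 and -4.29. Monocyte and macrophage genes gave 4 of 15 lower and 0 higher: Adgre1, Cd163, F13a1 and Ly6c1. Adgre1 measured -2.21 and -3.02 against -1.10 and -1.41, and Ly6c1 measured -1.29 and -2.12 against 1.58 and -0.45. Other probes of both genes, well above background on all 4 arrays, differed by 0.64 for Adgre1 and -0.02 for Ly6c1, so the probes disagree. The list had 2 genes lower when probes were averaged per gene and 1 with normexp, when 1397 and 166 of all genes were. Among myeloid transcription factors 2 of 17 were higher, Nfe2 among them, and Irf8 and Irf4 were lower. Irf8 measured -4.13 and -4.84 against -2.48 and -3.78. The monocyte and macrophage list had a median of 0.00, against 1.04 for phagocytic microglia. Of 12 mast cell, basophil and eosinophil genes 2 were lower (Ear2 and Cma1), and of 8 megakaryocyte genes 0 lay apart. Of 13 erythroid genes 2 were higher (Car2 among them) and 1 lower (Tfrc). Another Tfrc probe, well above background on 1 hybrid array and no unfused array, was higher in hybrids by 1.99. Lymphoid lists gave 1 of 15 B cell genes higher (Vpreb1) and, among 12 T and NK cell genes, Cd3g and Tcf7 higher and Il7r lower. Of 15 endothelial and pericyte genes 2 were lower (Rgs5 and Kcnj8).

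Signalling and effector genes lay on both sides within their lists. Of 39 chemokine and receptor genes 3 were higher (Cxcl16, Ccl24 and Ccr6) and 2 lower (Cxcl10 and Ccl11). Cxcl16, a transmembrane chemokine of macrophages, measured -2.65 and -1.14 in hybrids against -3.69 and -4.66 in unfused cells. Il18, an inflammasome-activated cytokine, measured -4.89 and -4.72 against -7.18 and -6.73, with tight replicates and a log2 difference of 2.15 ± 0.50 (SE, limma p 0.00272), while Casp1, which cleaves its precursor, was lower, at -6.35 and -5.06 against -3.38 and -4.46. Those were the 2 of 17 inflammatory mediators to lie apart. In antigen presentation, 2 of 11 MHC class II genes were higher, H2-DMb1 and H2-DMb2, which encode beta chains of the peptide exchange factor H2-DM. The alpha chain gene H2-DMa differed by 0.93 and did not lie apart. H2-DMb2 measured -4.64 and -1.96 against -6.86 and -5.81. Bcl2a1d, a survival gene of the Bcl2 family with near-identical copies, measured -2.60 and -3.34 against -4.89 and -5.48, and its probe could also bind the copies. Sirpa, the receptor for the "don't eat me" ligand CD47, was higher (-4.16 and -3.54 against -5.40 and -6.56), and Cd47 itself lower (-0.89 and -2.34 against 0.08 and -0.75). With Cd9 and Tyrobp higher and Anxa1 lower, the cell fusion list had 3 of 20 higher and 2 lower. A second Anxa1 probe, well above background on 1 hybrid and 2 unfused arrays, differed by -0.07. The list's Cdh1 was matched by name to another gene, Fzr1, which is counted among the 20 and did not lie apart.

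Wnt genes gave no common direction. Of 17 ligands 2 were lower (Wnt2 and Wnt8b) and Wnt1 differed by 0.00. A second Wnt8b probe, well above background on all 4 arrays, differed by -0.04, so the probes disagree. Among 21 receptors and modulators, Sfrp1 and Fzd2 were higher and Dkk3 and Fzd1 lower, and Fzd2 turned to -0.95 with slide row as a block. Of 15 targets and mediators 2 were higher, Tcf7 and Ctnnb1; Ctnnb1, which encodes beta-catenin, was at least 2.71-fold higher from a low level. Neurotrophic factors gave 0 of 16 apart. Cell cycle genes gave 0 of 27 higher and 1 lower (Mcm7), interferon response genes 0 of 20 higher and 2 lower (Cxcl10 among them), and stress genes 2 of 19 higher (Atf3 and Egr2). Ribosomal protein genes, all 67 well above background on the 4 arrays, had 1 apart, Rpl39 (lower). Of 47 respiratory chain genes 4 were higher and 2 lower, and of 28 actin genes 1 was higher and 2 lower.

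**Figure D5:**
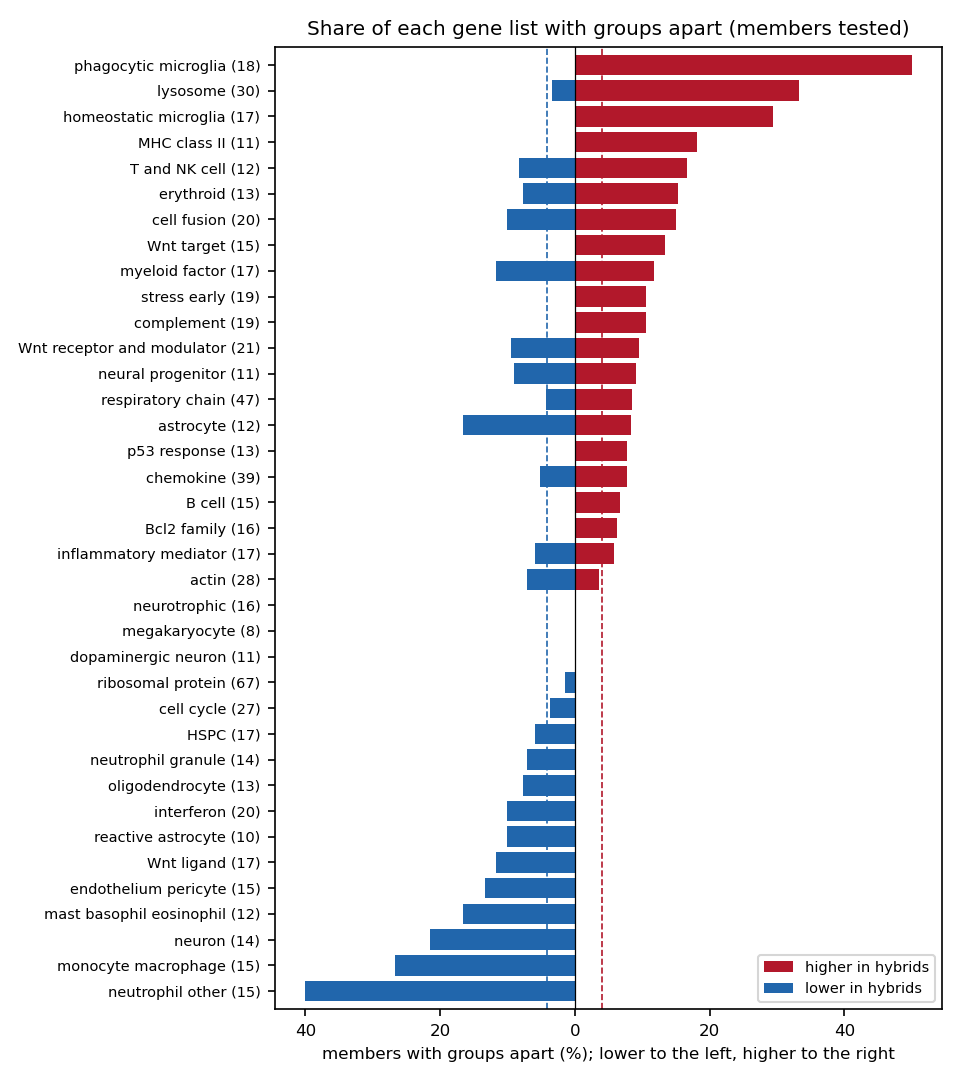
Percent of the tested members of each of 37 gene lists (members tested in brackets) whose groups lay apart, higher in GFAP-Cre hybrids to the right in red and lower to the left in blue. Dashed lines mark the shares over all genes, 4.0% and 4.15%; phagocytic microglia, lysosome and homeostatic microglia lists reach furthest right and the list of other neutrophil genes furthest left.

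The genes with the smallest p after Grn were dim. On the higher side they were Atxn2, Dgkk, Pik3ca, Il18, Rnft1, Rab3il1, Oxsm, Krt90, Fars2, Sulf2 and Babam1. Except for Il18, none of them was well above background on an unfused array. Pik3ca, the catalytic subunit of PI3-kinase alpha, measured -5.69 and -5.60 in hybrids against -9.11 and -9.17, at least 3.63-fold higher. Rab3il1, an exchange factor for Rab GTPases, had the largest difference of the genes with a symbol, 5.35 ± 1.27 (SE), but its hybrid replicates lay at -5.97 and -1.76. Cfl2, an actin-severing cofilin, measured -3.33 and -4.49 against -7.47 and -7.52, at least 10.74-fold higher by the probe used. A second Cfl2 probe measured -4.32 and -6.26 against -6.97 and -6.69, a log2 difference of 1.54. It was well above background on both hybrid arrays and 1 unfused array, so the bound does not hold for both probes. On the lower side were Aplf, Ngrn, Cnrip1, Sytl5, Fezf1, Med15, Themis3, Capn2, Foxn2, Aplp1, Ppp2r5c and Abcc4, none well above background in hybrids by the probe used. Abcc4, a transporter of cyclic nucleotides and prostaglandins, measured -4.59 and -4.99 in unfused cells and -8.71 and -9.74 in hybrids, at least 4.78-fold lower. Fezf1, a neural transcription factor, measured -4.47 and -4.88 against -8.49 and -7.97 in hybrids, at least 5.16-fold lower. The direction of Foxn2 turned with normexp (0.19) and with the authors' matrix (0.29). Without the filter on dim probes another probe stood for Ppp2r5c, with a difference of 3.04. That probe, and a second Foxn2 probe with a difference of 2.45, were each well above background on 1 hybrid array and no unfused array.

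R26Y hybrids, from recipients in which fusion with any cell can be marked, were on the same slide. They were set against the same unfused arrays as the GFAP-Cre hybrids, so only values are given side by side. Their replicates lay apart in depth (84.1% and 64.3% of spots well above background) and correlated at 0.678. In limma 0 of 32212 genes (0%) differed between GFAP-Cre and R26Y hybrids, with 909 at an unadjusted p under 0.05, and 2204 were called when R26Y replicate 1 was left out. Grn measured -6.65 and -6.41 in R26Y hybrids, below both GFAP-Cre arrays by more than 2 log2 units (difference 2.72 ± 0.53, SE, limma adjusted p 1.00). Itgax measured -7.16 and -7.74 there and Il18 -6.96 and -6.85. Itgax was well above background on 0 of the R26Y arrays, and Grn and Il18 on 1 each. Bcl2a1d measured -7.16 and -8.72, a difference of 4.97 ± 0.67 (SE, limma adjusted p 1.00). Its value on R26Y replicate 2 lay below the lowest signal well above background on that array, -6.84. Mpo, at -5.91 and -7.42, was as low as in GFAP-Cre hybrids, and Apoe, at -0.20 and 3.99, spanned the GFAP-Cre values. Against the shared unfused arrays the median difference was 0.19 for the lysosome list and 0.44 for phagocytic microglia in R26Y hybrids, with all genes at -0.28. In GFAP-Cre hybrids these were 0.60 and 1.04, with all genes at 0.04.

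FoxA2-Cre hybrids, whose recipients express Cre from the promoter of a ventral midbrain factor, have their own unfused arrays, on another slide and dimmer (19.8% to 49.2% of spots well above background). Slide and recipient cannot be told apart in this comparison. The hybrid effect differed from that in GFAP-Cre recipients for 17 of 32212 genes (0.0528%), 16 of them with a higher and 1 with a lower effect in GFAP-Cre recipients. The count was 0 without any 1 GFAP-Cre hybrid, pooled unfused or FoxA2-Cre unfused array, and 49 and 77 without FoxA2-Cre hybrid replicate 1 or 2. Each of these fits leaves 1 group with a single array, which is assumed to vary like the other groups. Rps27a, a ribosomal protein gene fused to ubiquitin, measured 1.98 and 2.04 in GFAP-Cre hybrids and 2.32 and 2.06 in pooled unfused cells, so it was level there. In FoxA2-Cre recipients it measured -4.63 and -5.19 in hybrids against 3.99 and 4.21. The difference in effect was 8.83 ± 0.69 (SE, limma adjusted p 0.0284). The hybrid values of Rps27a there were close to the lowest signals well above background on those arrays, -5.06 and -5.77. The ribosomal protein list as a whole had a median difference of -2.20 in FoxA2-Cre recipients, against 0.38 for all genes. The difference in effect for Grn (2.35 ± 0.75, SE, limma adjusted p 0.843) did not pass, nor did that for Mpo (4.01 ± 1.48, SE, limma adjusted p 0.973). For Grn, FoxA2-Cre hybrids measured -5.13 and -5.75 and their unfused cells -6.92 and -6.48. Grn was well above background on 0 of these FoxA2-Cre arrays, so these values do not show a difference in its level there.

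Few of the genes that lay apart could be followed on the FoxA2-Cre arrays. Of the 1288 higher genes, 43 were well above background on all 4 of them, and 32 of these (74.4%) were higher in FoxA2-Cre hybrids, against 65.2% of all 7713 genes so detected. Of the 1338 lower genes 33 were so detected, and 9 (27.3%) were lower, against 34.8% of all. The first share lies a little above and the second below that of all genes, with no test made. The median difference in FoxA2-Cre recipients was 0.54 for the lysosome list and 0.99 for phagocytic microglia, with all genes at 0.38. Lists varied widely there: HSPC and MHC class II genes both had a median of 0.88, and actin genes -0.51.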

How the data were processed

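Sorted-cell RNA was amplified as cDNA, and 500 ng was labelled with Cy3 for 1-colour Agilent 8x60K arrays, per the labels' protocols. The deposited spot tables come from Agilent Feature Extraction 10.7.3.1 and hold processed, mean and background signals as intensities, with 0 or 1 marks of each spot as other values, per the file headers. A matrix in log2 units, also deposited, served only as an alternative; it follows the rank order of mean minus background signal on each array, and the tool behind it is not given in the sources used here. 0 columns belonged to unmatched samples.

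Each array has 62976 spots, 59305 of them not controls, for 55681 probes. Names were updated through RefSeq accessions: 27428 probes matched, 2788 changed name and 28253 kept the file's name. Values are log2 of processed signal minus the array's 75th percentile over the 9250 probes well above background on all 10 arrays. Non-uniform spots were dropped, spots of a probe averaged, and probes kept when well above background on at least 2 arrays. The probe with the highest mean stood for its gene. A gene is missing on some of the 4 arrays in 22 cases. The number of arrays limits the precision.

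Comparisons used limma 3.58.1 in R 4.3.3: 5 group means, shared spread, 5 residual degrees of freedom, two-sided moderated tests, Benjamini-Hochberg adjustment and a threshold of 0.05. The code was tested on simulated data. Replicate numbers do not pair samples in the labels. Alternatives covered background correction, scaling, filters, probe choice, arrays fitted, blocks, weights and left-out arrays. Named genes were, among those with a symbol and groups apart, the 12 with the smallest p and the 6 with the largest difference per direction, up to 4 such members of each list, and 13 fixed genes; up to 4 per direction were named for the other 2 comparisons. Further list members are named after their values were seen. The members, the 37 lists (730 genes, 661 tested) and the rule were chosen with earlier results of these data known. Results for some genes are not reported here.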

Additional observations from a re-analysis of the deposited data

Results flagged for a closer look

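The hybrid effect (hybrid minus unfused, log2) differed between GFAP-Cre and FoxA2-Cre recipients for 17 genes by the interaction test in limma. Among those with a symbol, the difference in effect was 8.83 for Rps27a, 7.61 for Orly, a gene on unplaced Y sequence, and 8.31 for Pfn1, which encodes the actin-binding protein profilin. In each the GFAP-Cre effect was near 0 (-0.18, -0.01 and 0.11). Pfn1 measured -0.93 and -1.43 in GFAP-Cre hybrids against -0.73 and -1.86 in pooled unfused cells, and -5.57 and -5.02 in FoxA2-Cre hybrids against 2.71 and 3.08 in their unfused cells. On FoxA2-Cre hybrid replicate 1 Pfn1 lay below the lowest signal well above background, -5.06, so the size of its difference rests on signal near background. Recipient and slide cannot be told apart here.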

How the results depend on the processing

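For GFAP-Cre hybrids against unfused cells limma called 0 genes under every alternative run, with a lowest adjusted p of 0.121 over all settings. Fitted on the 4 arrays alone limma gave 1879 of 32212 genes at an unadjusted p under 0.05, with a smallest adjusted p of 0.769. The genes with groups apart numbered 132 higher and 166 lower with normexp, 272 and 432 with the authors' matrix, and 1731 to 3288 and 1690 to 3418 when 1 array was left out. The count against R26Y hybrids ranged from 0 to 2204 with 1 array left out. The 17 genes of the FoxA2-Cre interaction became 30 with normexp, 2 with quantile normalization, 37 with the authors' matrix, 7 with the mean of probes, 4 without shared probes, 50 with array weights and 0 to 77 with 1 array left out. With the replicate block it was 0, and the block left the other 2 counts at 0. The replicate 1 deviations of GFAP-Cre hybrids and pooled unfused cells from their group means correlated at 0.06 across genes. With 2 arrays a group that value cannot show whether the numbers pair samples, and the labels do not say. The interaction could not be fitted with slide row as a block or on 6 or 4 arrays. Signs turned for Foxn2 (0.19 with normexp, 0.29 with the matrix) and Ppp2r5c (3.04 with no filter, by another probe). They also turned for Fzd2 (-0.95) and Tyrobp (-0.18) with slide row, and Foxa2 (0.012 with normexp, 0.21 with the mean of probes, 0.59 with slide row). Wnt1, at 0.00, gave -0.021 with normexp, -0.018 with the matrix, -0.024 with all probes, -0.0034 with quantile, -0.026 with the median and -0.089 with the mean of probes. With 1 array left out the ranges were -1.41 to 0.94 for Foxa2, -0.22 to 0.12 for Kit, -0.43 to 0.25 for Ptprc, -0.34 to 0.016 for Th and -0.10 to 0.10 for Wnt1. The cause was not tested in any of these. Having 2 arrays a group and signal near background limit what the dim genes can show.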
